A study of Mus musculus with 2 samples.

Results

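The Ly6 genes studied here are Ly6a, Ly6c1, Ly6c2, Ly6d, Ly6e and Ly6k, 6 of the 23167 gene symbols in the expression files, taken by symbol. A further 9 symbols that start with Ly6 are in the files and are counted in the wider family described after them. The files hold RNA levels of naive CD4 cells and of naive CD8 cells, which await antigen before they become helper or cytotoxic T cells, with 1 library per cell type. The cells came from spleen and lymph nodes of Foxp3-GFP mice, a reporter strain on the C57/BL6 background in which regulatory T cells carry GFP, and were sorted as high for CD62L, low for CD44 and negative for CD25 and GFP. Both groups share the strain, the tissues and this gate, and differ in the T cell lineage. The sources used here do not state the number, sex or age of the mice. Levels are in RPKM, reads scaled by gene length and by the size of the library, as the authors deposited them. The RPKM fit library totals of 24741945 reads (CD4) and 23853921 reads (CD8). These totals were inferred from the values, with their scale set by annotated transcript lengths, and the read counts below rest on them. With 1 library per cell type no difference has a replicate check, and the 95% intervals given below cover counting error only. In such bulk libraries fewer cells that make an RNA and less RNA per cell cannot be told apart.

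Ly6 proteins are small cell surface proteins of the Ly6/uPAR family, folded into a disulfide-bonded three-finger domain and held in the membrane by a glycosylphosphatidylinositol (GPI) anchor. In mouse most of them are encoded side by side in a cluster on chromosome 15. Several serve as flow cytometry markers: Ly6A is Sca-1, the antigen of haematopoietic stem cells and of activated lymphocytes, and Ly6C marks monocyte subsets and, among T cells, memory-phenotype CD8 cells. Interferons raise several of them, Ly6a, Ly6e and the Ly6c genes included.

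The 6 genes together were at almost the same level in both cell types, and the lineages differed in which paralog made up that level. Ly6e was the highest member in both libraries. Next to it, the CD4 library held Ly6a and Ly6c1 and almost no Ly6c2, and the CD8 library held Ly6c2, less Ly6a and almost no Ly6c1. The summed RPKM of the 6 genes was 423 in CD4 and 411 in CD8, a ratio of 1.03. Ly6e made up 51.2% of that sum in CD4 and 47.8% in CD8. Ly6a made up 37.3% in CD4 and 10.7% in CD8. Ly6c2 made up 0.612% in CD4 and 39.9% in CD8, while Ly6c1 made up 10% in CD4 and 0.567% in CD8. With the lengths of annotated coding transcripts the share of Ly6c1 was 18.6% in CD4 and 1.12% in CD8, and that of Ly6a was 30.8% and 9.39%.

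**Figure D1:**
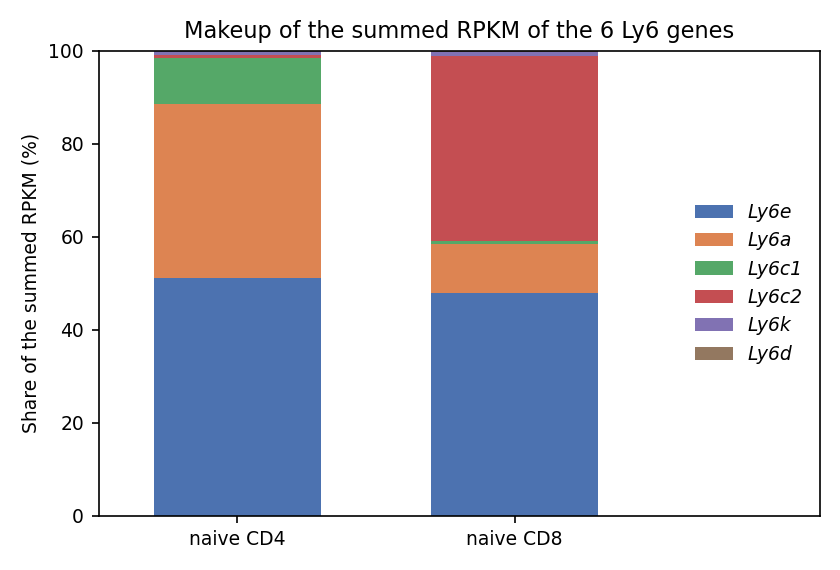
Share of each gene (y axis, percent) in the summed RPKM of the 6 Ly6 genes, in naive CD4 and naive CD8 (x axis, 1 library each). Ly6e takes a similar part of each column, and the rest is mostly Ly6a and Ly6c1 in CD4 and mostly Ly6c2 in CD8.

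Because the results turn on Ly6c1 and Ly6c2, their sequences are shown first. The pair had 97.6% identity over 822 aligned bases of their coding transcripts in the GENCODE M21 annotation of build GRCm38. Their coding sequences, of 393 bases each without the stop codon, differed at 9 bases, and the longest identical run was 188 bases. Of the 9 differences, 6 lay within 60 bases near the start. That stretch, bases 6 to 65 counted from the first base of the start codon, is printed here because it holds most of the coding differences by which a read can tell the paralogs apart, with the differing bases in capitals.
Ly6c1: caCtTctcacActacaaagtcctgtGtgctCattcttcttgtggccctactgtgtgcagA
Ly6c2: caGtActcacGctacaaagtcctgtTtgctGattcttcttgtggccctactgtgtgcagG

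The promoters were less alike than the transcripts. RefSeq promoters, from 250 bases before to 50 bases after a listed transcription start in GRCm38.p6, were at hand for Ly6c1 and Ly6c2 and for no other of the 6 members. Each gene had 2 listed starts, and the most alike pair is printed, chr15:75048788-75049087 for Ly6c1 and chr15:75111922-75112221 for Ly6c2, both on the minus strand. Over 266 aligned bases 208 were identical (78.2%), 58 differed and 16 more stood opposite a gap. Capitals mark bases that differ or face a gap within the aligned part. The sequences are shown because these paralogs, nearly identical in what they encode, had opposite values in the 2 libraries.
Ly6c1: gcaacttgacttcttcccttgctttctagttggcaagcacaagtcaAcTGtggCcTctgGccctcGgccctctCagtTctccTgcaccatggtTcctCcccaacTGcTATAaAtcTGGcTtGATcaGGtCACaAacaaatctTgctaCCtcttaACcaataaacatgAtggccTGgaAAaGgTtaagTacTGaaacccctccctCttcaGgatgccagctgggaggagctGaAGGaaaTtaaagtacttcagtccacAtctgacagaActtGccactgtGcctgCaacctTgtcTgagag
Ly6c2: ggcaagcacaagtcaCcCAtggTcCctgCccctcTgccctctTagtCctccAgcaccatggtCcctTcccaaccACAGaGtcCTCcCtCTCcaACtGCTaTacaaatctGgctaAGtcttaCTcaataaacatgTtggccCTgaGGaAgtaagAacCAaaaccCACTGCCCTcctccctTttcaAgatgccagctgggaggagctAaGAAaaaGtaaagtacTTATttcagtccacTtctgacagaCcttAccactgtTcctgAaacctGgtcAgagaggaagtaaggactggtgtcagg

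The printed promoters were searched on both strands for 5 motifs, and a match is a description of these letters only. Matches at the other listed start of each gene were not looked at separately. The Runx motif TGTGGT was found once in the Ly6c2 promoter, on the reverse strand, and not in that of Ly6c1, and 16.8% of the 32851 RefSeq promoters of this length held it. The interferon-gamma activated site TTCNNNGAA, held by 8.30% of promoters, the interferon-stimulated response element (searched as GAAA, any 2 bases and GAAA again, 3.44%), the T-box site GGTGTGA (3.98%) and the Ets motif ACCGGAAG (2.30%) were in neither window. The letters of the first and the second of these can overlap, as can those of the Runx and T-box motifs.

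Ly6c2 had the largest difference of the 6 members. It encodes a Ly6C protein and was at 2.59 RPKM in CD4, from 51 reads, and at 164 RPKM in CD8, from 3114 reads. It was 63.3-fold higher in CD8, with an exact (Clopper-Pearson) 95% interval of 48.0 to 85.2. Its position was 5 of 10228 compared genes in order of the log2 difference toward CD8. Compared genes are those at 1 RPKM or more in at least 1 library, and the log2 difference is log2((CD4 RPKM + 1)/(CD8 RPKM + 1)), which was -5.52 for Ly6c2. By level it stood at position 308 in the CD8 library and 8891 in the CD4 library.

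Ly6c1, which encodes the other Ly6C protein, went the opposite way. It was at 42.4 RPKM in CD4, from 1718 reads, and at 2.33 RPKM in CD8, from 91 reads. It was 18.2-fold higher in CD4 (14.7 to 22.7), with a log2 difference of 3.70, at position 6 of 10228 toward CD4. Of the reads given to the pair, Ly6c2 held 2.88% of 1769 in CD4 (exact binomial 95% interval 2.15 to 3.77) and 97.2% of 3205 in CD8 (96.5 to 97.7). The paralog that was low had 2.97% as many reads as the high one in CD4 (Ly6c2 against Ly6c1) and 2.92% as many in CD8 (Ly6c1 against Ly6c2). Whether the low paralog's reads came from its own transcripts or from reads of the other gene was not tested. Markers of the other lineage were also found at low levels. In the CD4 library Cd8b1 was at 21.4 RPKM and Cd8a at 2.50, against 788 and 518 in CD8. In the CD8 library Cd4 was at 8.89 RPKM, against 305 in CD4. The part of cells of the other lineage in the low paralog's reads was not tested.

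**Figure D2:**
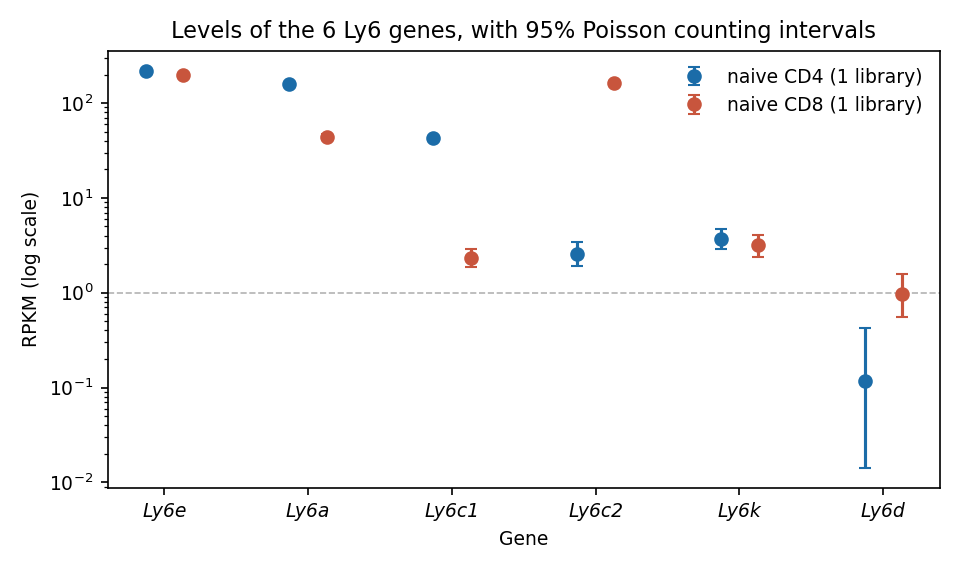
RPKM on a log axis (y) of the 6 Ly6 genes (x) in the naive CD4 and naive CD8 libraries, 1 library each, with bars for the 95% Poisson interval of the read count; the dashed line is at 1 RPKM. Ly6e and Ly6k are near equal, Ly6a and Ly6c1 are higher in CD4, and Ly6c2 and Ly6d are higher in CD8.

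How far reads can be placed on 1 member depends on how much of its transcript occurs in no other annotated gene. Of the 25-base windows of the 844-base Ly6c1 transcript 33.9% occurred in no other gene, and of its 50-base windows 63.3%. The length behind the Ly6c1 RPKM was 1639 bases, so these windows do not cover all of the counted sequence. For Ly6c2 the shares were 38.3% and 67.0%, and at 50 bases 32.6% of Ly6c2 windows also occurred in Ly6c1. Ly6a shared less, with 70.2% of its 25-base and 91.9% of its 50-base windows in no other gene, and the genes that shared most of its 50-base windows were Ly6i and I830127L07Rik, a symbol listed by RefSeq for Ly6a2. Ly6e (98.2% at 25 bases, 100% at 50) and Ly6d (100% at each length) were almost or wholly separate. Ly6k had 61.9% and 70.8%, and every shared window was with Gm17189, which is not among the symbols analysed here. Neither the read length nor the treatment of reads that map to several places is stated, so the values of Ly6c1 and Ly6c2 are uncertain to that extent.

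**Figure D3:**
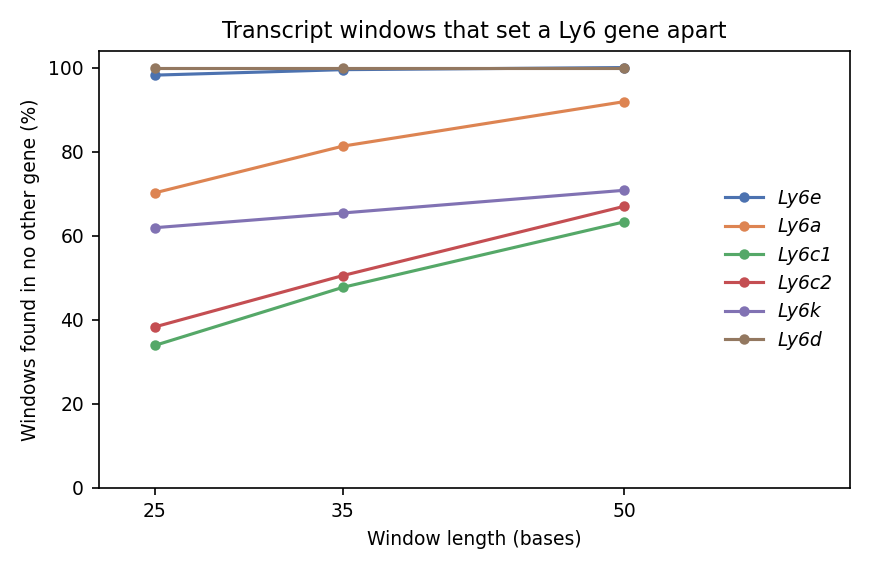
Percent of windows of each member's transcript (y axis) that occur in no other GENCODE M21 gene, for windows of 25, 35 and 50 bases (x axis). Ly6c1 and Ly6c2 are lowest at 33.9% and 38.3% for 25 bases and reach 63.3% and 67.0% at 50 bases.

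The gene length behind the RPKM matters for comparing the paralogs with each other. The lengths taken from those that make the deposited values whole reads were 797 bases for Ly6c2, near the 822 bases of its longest annotated coding transcript and far from the 2740 bases that all its annotated exons cover, and 1639 bases for Ly6c1, near the 1677 bases that all annotated Ly6c1 exons cover together and well above the 844 bases of its longest coding transcript. Per 844 bases Ly6c1 would stand at 82.3 RPKM in the CD4 library and 4.52 in the CD8 library. The ratio of a gene between the libraries does not depend on the length. The sum of the pair does: it was 45.0 RPKM in the CD4 library and 166 in the CD8 library, 3.70-fold higher in CD8, with the deposited lengths, and 84.8 and 163, 1.93-fold higher in CD8, with coding transcript lengths. Summed as reads per library total, the pair was 1.88-fold higher in CD8 (1.77 to 1.99). With coding lengths the sum of all 6 members was 442 in CD4 and 403 in CD8.

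Ly6a, the Sca-1 gene, was the second member at least 2-fold higher in CD4. It was at 158 RPKM in CD4, from 3214 reads, and 43.9 RPKM in CD8, from 862 reads, a 3.59-fold difference (3.33 to 3.88, or 3.23 to 4.01 should the values stem from 1607 and 431 reads over a shorter length). Its log2 difference was 1.82, at position 57 of 10228 toward CD4. Ly6a was well expressed in both libraries, at position 331 by level in CD4 and 1631 in CD8. Its transcript had 84.6% identity with that of Ly6c1 and 83.6% with that of Ly6c2, against 54.2% to 55.7% with those of Ly6d, Ly6e and Ly6k.

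Ly6e, whose protein is widely expressed, known as an immature thymocyte antigen and raised by interferon, hardly differed. It was at 216 RPKM in CD4, from 12288 reads, and 196 RPKM in CD8, from 10764 reads, a 1.10-fold difference (1.07 to 1.13). The interval leaves 1, but the log2 difference of 0.14 was close to the median of all compared genes, 0.08, and at position 4431 of 10228 toward CD4. By level Ly6e was at position 226 in CD4 and 262 in CD8.

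Ly6k and Ly6d were low. Ly6k, a gene best known from testis and sperm, was at 3.68 RPKM in CD4 (70 reads) and 3.16 in CD8 (58 reads). Its ratio of 1.16 had an interval of 0.810 to 1.68, so a difference was not detectable at this depth. Ly6d, a marker of early B lineage progenitors, was at 0.117 RPKM in the CD4 library and 0.975 in the CD8 library, under 1 RPKM in both, and was not compared. The 2 reads in CD4 and 16 in CD8 gave an 8.30-fold higher value in CD8 with an interval of 1.95 to 74.4. The same RPKM would also arise from 1 and 8 reads over a shorter length, and the interval would then be 1.11 to 368. The B cell marker Cd79b, a chain of the B cell receptor complex, moved the same way, at 2.14 RPKM in the CD4 library and 28.8 in the CD8 library. The sum of the other 6 B cell markers, Cd79a and Ms4a1 among them, was 1.53 RPKM in the CD4 library and 1.56 in the CD8 library. The part of B lineage RNA in the Ly6d reads was not tested.

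Of the 6 members 5 were compared, and 2 of them, Ly6a and Ly6c1, were at least 2-fold higher in CD4, where 2.41% of all 10228 compared genes were. Ly6c2 was the 1 member at least 2-fold higher in CD8, where 3.07% of compared genes were. In either direction 3 of 5 members were at least 2-fold apart, against 5.48% of compared genes. At least 2-fold means an absolute log2 difference of 1 or more. Of the genes past it 247 stood toward CD4 and 314 toward CD8, and after rescaling both libraries to a sum of 1000000 the split was 517 to 285, with the calls of the members as before.

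**Figure D4:**
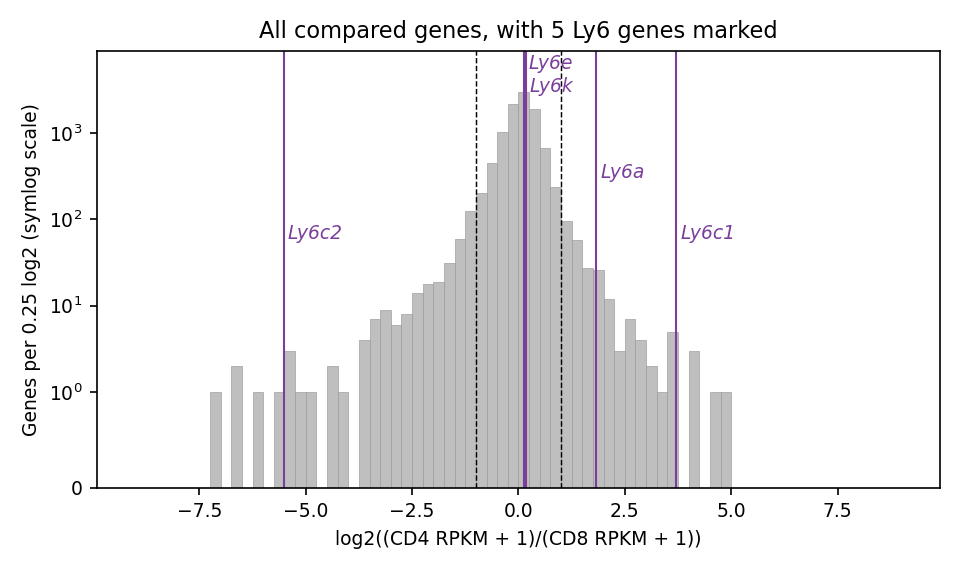
Number of compared genes (y axis, symlog scale) by log2 difference between the naive CD4 and naive CD8 libraries (x axis, 0.25 per bin), with purple lines at the 5 compared Ly6 genes and dashed lines at 2-fold. Ly6e and Ly6k lie in the peak, Ly6a and Ly6c1 lie in the tail toward CD4 and Ly6c2 in the tail toward CD8.

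The order of the levels was Ly6e, Ly6a, Ly6c1, Ly6k, Ly6c2, Ly6d in CD4 and Ly6e, Ly6c2, Ly6a, Ly6k, Ly6c1, Ly6d in CD8. In CD4 the Poisson intervals of Ly6k (2.87 to 4.65 RPKM) and Ly6c2 (1.93 to 3.40) overlapped, and in CD8 those of Ly6k (2.40 to 4.09) and Ly6c1 (1.87 to 2.86) did, so the order within these pairs is not settled. The other neighbours in the order did not overlap. Per coding transcript length, Ly6c1 stood above Ly6k in CD8.

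Along chromosome 15 the large differences stood side by side. In the RefSeq gene order of GRCm38.p6, used for names only because the files are of build mm9, 29 protein-coding genes run from Psca to Gpihbp1, the members among them. Of these 21 were in the files, 10 of the 21 were listed at 0 in both libraries and 8 were compared. Ly6a, Ly6c1 and Ly6c2 follow each other without another protein-coding gene in between, with log2 differences of 1.82, 3.70 and -5.52. Ly6i, which lies between Ly6e and Ly6a and is a near relative of Ly6a, was found with 7 reads in the CD4 library and 4 in the CD8 library (0.323 and 0.192 RPKM). The compared genes of the stretch besides Ly6a, Ly6c1, Ly6c2, Ly6e (0.14) and Ly6k (0.17) were Them6 (log2 difference -0.33), Lynx1 (0.57), which encodes a Ly6-fold modulator of nicotinic receptors, and Ly6m (-0.28). Outside it, Arc (0.46) and Jrk (0.36) on one side and Zfp41 (0.48) and Top1mt (0.39) on the other were under 2-fold. Ly6g, the neutrophil antigen gene of the cluster, was not analysed here.

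**Figure D5:**
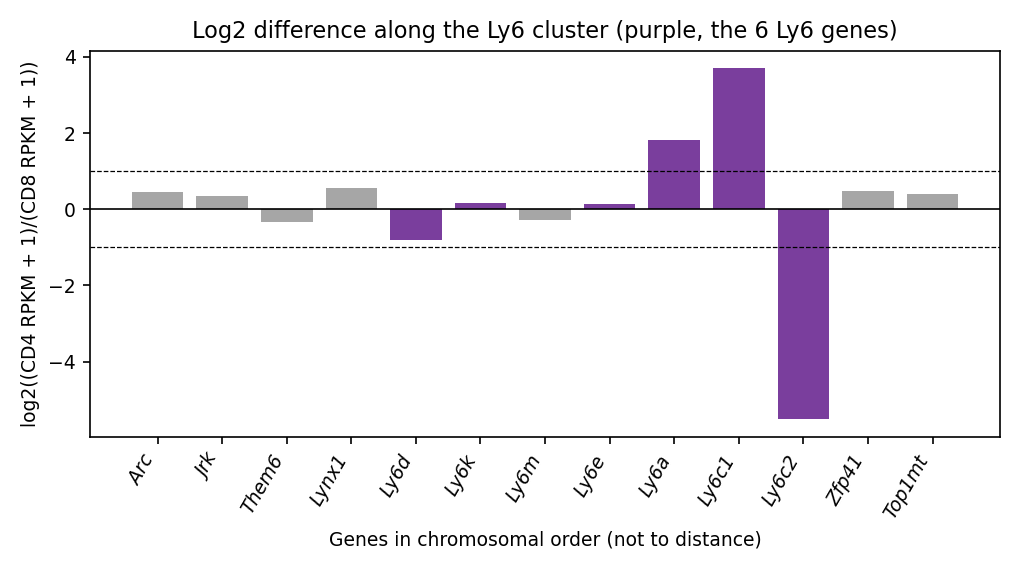
Log2 difference (y axis, CD4 above 0 and CD8 below 0, pseudocount 1 RPKM) of the compared genes in and beside the Ly6 cluster of chromosome 15 in their order (x axis, not to distance), with Ly6d, which was under 1 RPKM in both libraries, added; dashed lines mark 2-fold. Ly6a, Ly6c1 and Ly6c2 pass 2-fold and no other gene shown does.

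Most of the wider Ly6/uPAR family was silent or low. Of a list of 31 further family genes, matched by symbol, 28 were in the files. Of these 20 were listed at 0 in both libraries, Ly6f and Ly6h included, and 4 were compared. Lypd6b, the highest of them, was at 23.7 RPKM in the CD4 library and 23.5 in the CD8 library (ratio 1.01, 0.931 to 1.09). Plaur, the urokinase receptor, was at 3.38 RPKM in the CD4 library and 10.1 in the CD8 library. It was 3.0-fold higher in CD8 (2.42 to 3.73), the 1 of these 4 genes past 2-fold, and 0 passed with a pseudocount of 5 RPKM. Lynx1 was at 3.18 and 1.83 RPKM (1.74-fold higher in CD4, 1.44 to 2.11), and Ly6g5b at 1.08 and 1.75 RPKM (1.63-fold higher in CD8, 0.992 to 2.72). The median log2 difference of the 4 was -0.20, against 0.08 for all compared genes, of which 5.48% were past 2-fold. Ly6m (0.772 RPKM in the CD4 library and 1.16 in the CD8 library) and Slurp2 (0.526 and 0) were in the files under other symbols and are not in these counts.

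The machinery that makes the GPI anchor was expressed in both cell types. Of all compared genes 6083 were above 0 and 4145 below 0 on the log2 scale. Of 31 genes of anchor synthesis and attachment 29 were compared, 13 were above 0 and 16 below 0, and the median was -0.04. Of all compared genes 2.41% stood past 2-fold toward CD4 and 3.07% toward CD8. In this list 0 genes stood past 2-fold toward CD4 and 3 toward CD8. These were Piga, the catalytic subunit of the first step, with 7.49 RPKM in the CD4 library and 16.4 in the CD8 library (2.19-fold, 1.99 to 2.40), Pigp of the same enzyme complex at 4.81 and 12.3 RPKM (2.57-fold, 2.18 to 3.03), and Dpm3 of the mannose donor synthase at 17.6 and 39.7 RPKM (2.26-fold, 1.88 to 2.72). With a pseudocount of 5 RPKM 0 of the 3 passed 2-fold. After scaling both libraries to the same sum of 1000000, 1 passed and the list's median was 0.13, where the median of genes at 1 RPKM or more in each library moved to 0.29.

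Other GPI-anchored proteins of lymphocytes stood mostly toward CD8. Of 13 genes 11 were compared, 9 of them below 0 and 2 above, against 4145 below and 6083 above of all compared genes. The median of the 11 was -0.53, against 0.08 for all compared genes. Of all compared genes 5.48% were past 2-fold in either direction. Cd52, a short glycoprotein of lymphocytes, stood at the top with 718 RPKM in the CD4 library and 983 in the CD8 library (1.37-fold higher in CD8, 1.33 to 1.41). Thy1, the pan-T cell antigen, was at 157 and 227 RPKM (1.44-fold, 1.40 to 1.49). Past 2-fold were Cd160, an inhibitory and costimulatory receptor, at 0.859 and 11.5 RPKM (13.4-fold higher in CD8, 10.2 to 17.9), Nt5e, the ecto-5'-nucleotidase CD73, at 14.1 and 34.4 RPKM (2.45-fold higher in CD8, 2.29 to 2.62), and Folr4, at 56.0 and 20 RPKM (2.80-fold higher in CD4, 2.59 to 3.02). Ly6a and Ly6c1 stood on the other side of 0 from most of these genes, and Ly6c2 on the same side.

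Most interferon pathway genes, like most compared genes, were under 2-fold apart. All 12 genes of interferon receptors and signalling were compared. Of the 12, 0 were at least 2-fold apart, against 5.48% of all compared genes. The median of the 12 was 0.08, the same as that of all genes. The receptor chains went both ways, with Ifngr2 1.64-fold higher in CD4 (1.56 to 1.73) and Ifngr1 1.40-fold higher in CD8 (1.34 to 1.47). Among all compared genes 6083 were above 0 and 4145 below. Of 32 compared interferon-stimulated genes outside the family 22 were above 0 and 10 below, with a median of 0.10. Past 2-fold were Ifit2, at 34.6 and 16.6 RPKM (2.08-fold higher in CD4, 1.96 to 2.21), and Mx1, at 5.14 and 11.4 RPKM (2.22-fold higher in CD8, 1.96 to 2.51). With a pseudocount of 5 RPKM neither passed. Ifit2 did not pass when values were centred on the median gene, and Mx1 did not when libraries were scaled by the housekeeping genes or to equal sums. Ly6a, Ly6c1 and Ly6c2 had larger log2 differences than any gene of either interferon list, and Ly6e lay near their medians. The part of interferon in the Ly6 differences was not tested.

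Ly6C is read on CD8 cells as a sign of memory phenotype, and most genes listed for that phenotype were, like Ly6c2, higher in the CD8 library. Of all compared genes 3.07% stood past 2-fold toward CD8 and 2.41% toward CD4, with a median of 0.08. Of 16 compared memory-phenotype genes 10 stood past 2-fold toward CD8 and 2 toward CD4, and the median was -1.66. With a pseudocount of 5 RPKM 6 and 1 did and the median was -0.66, and with one of 0.1 RPKM 10 and 3 did and the median was -2.68. Centred on the median gene, 1 gene stood past 2-fold toward CD4. Nkg7, a protein of cytotoxic granules, had 1.75 RPKM in the CD4 library and 267 in the CD8 library (153-fold, 110 to 220). Klrd1, the CD94 chain of NK-type receptors, had 7.85 and 106 RPKM (13.4-fold, 11.5 to 15.8), and Ccl5, a chemokine, had 0.765 and 20.4 RPKM (26.7-fold, 14.3 to 56.3). Toward CD4 stood Fasl and Cd44. Fasl, the death receptor ligand, had 11.6 and 1.17 RPKM (9.89-fold, 7.47 to 13.3). Cd44, the antigen the cells were gated low for, had 6.33 RPKM in the CD4 library and 2.60 in the CD8 library (2.43-fold, 2.14 to 2.76). The part of memory-phenotype cells in the Ly6c2 reads was not tested.

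Markers of other cells that carry Ly6 antigens were low beside those of T cells. The 6 T cell markers summed to 1848 RPKM in the CD4 library and 1928 in the CD8 library. Cd4 was at 305 and 8.89 RPKM, Cd8a at 2.50 and 518 and Cd8b1 at 21.4 and 788, in the direction of the labels. Monocytes express Ly6c2, and of 8 monocyte and macrophage markers, with a sum of 8.81 RPKM in the CD4 library and 5.17 in the CD8 library, Csf1r was at 0.210 and 0.174 RPKM and Cd14 was listed at 0 in both. The markers higher in CD4 also included Fcgr3 (4.86 and 1.21 RPKM), which made up most of the CD4 sum, and Itgam (1.62 and 0.559). Lyz2 (1.65 and 2.15), Ccr2 (0.372 and 0.596), Emr1 (0.0502 and 0.221) and Cx3cr1 (0.0542 and 0.259) were higher in CD8, as Ly6c2 was. The part of monocytes in the Ly6c2 reads was not tested. The neutrophil markers in the files, 7 genes, summed to 3.0 RPKM in the CD4 library and 5.45 in the CD8 library. S100a8 (0.520 and 2.48 RPKM, 4.77-fold, 1.77 to 16.1) was past 2-fold toward CD8, the direction of Ly6c2. Camp, Mpo and Elane were also higher in CD8, and Ngp and Retnlg in CD4. S100a9 had 24 and 23 reads. Dendritic cell markers, 6 genes, summed to 0.460 and 1.34 RPKM, most of it Itgax (0.263 and 1.07). Zbtb46 and Clec9a were higher in CD8, Flt3 and Xcr1 in CD4, and Siglech was at 0 in both. The part of neutrophils or dendritic cells in the Ly6c2 reads was not tested. Plasma cell markers, 5 genes, summed to 7.74 RPKM in the CD4 library and 7.12 in the CD8 library, most of it Irf4 (5.81 and 5.67). Prdm1 (1.24 and 0.171) was higher in CD4, Igj (0.674 and 1.16) and Sdc1 (0.0132 and 0.124) were higher in CD8, and Tnfrsf17 was listed at 0 in both. Endothelial cells express Ly6a and Ly6c1. Of the 6 endothelial markers Pecam1, which T cells also express, was at 105 RPKM in the CD4 library and 52.4 in the CD8 library, Cdh5 was at 0.183 and 0.0527, Kdr was at 0.0448 and listed at 0, and Emcn, Tek and Cldn5 were listed at 0 in both. NK cell markers summed to 35.3 RPKM in the CD4 library and 60.5 in the CD8 library, most of it Prf1, which T cells also express, at 34.6 and 54.6 RPKM, and Klra8 and Klra4 were listed at 0 in both. The NK markers Gzma, a granzyme, with 0.556 and 4.51 RPKM (8.12-fold, 4.44 to 16.3), and Klrb1c, the NK1.1 antigen, with 0.0308 and 1.36 RPKM (44.1-fold, 11.8 to 370), were past 2-fold toward CD8, the direction of Ly6c2. Ncr1 was at 0.111 RPKM in CD4 and listed at 0 in CD8. The part of NK-type cells in the Ly6c2 reads was not tested.

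Genes with levels most like those of a member were found by distance on the log2(RPKM + 1) scale over the 2 libraries, taking the 3 nearest. With 2 points per gene this says only that the levels were alike. Ly6a was nearest to Tspan32 (192 RPKM in the CD4 library and 41.6 in the CD8 library), Trat1 and Trib2, at distances of 0.29 to 0.46. Ly6c1 was nearest to Pdlim4 (50.4 and 3.17 RPKM), Zbtb7b and Mapk11, at 0.41 to 0.66. Ly6c2 was nearest to Nkg7 (1.75 and 267 RPKM), Plac8 and Ccr9, at 0.80 to 1.4. Ly6e had the closest neighbours, Hnrnph1 (216 and 192 RPKM), Rac2 and Eif1, at 0.035 to 0.086.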

How the data were processed

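Ribosomal-RNA-depleted total RNA of 1 naive CD4 and 1 naive CD8 sample was sequenced on libraries made by a SOLiD whole-transcriptome method for small inputs, per the labels' protocols. The submitters' processing notes name TopHat, HTSeq and the build mm9 without versions. The sources used here do not state the annotation, the strand setting or the handling of multiply mapping reads, so reads of a gene and an antisense partner may be mixed. The authors deposited RPKM, 1 value per row. Each file had 26882 rows for 23167 symbols, and the 2597 symbols on more than 1 row (Ly6c1 on 4 and Ly6e on 3) had identical values on each row, of which 1 was kept. The cell type labels gave the groups.

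Whole reads were recovered from the RPKM in Python 3.11.15 with numpy and scipy. Library totals were those at which gene lengths came out whole, scaled by GENCODE M21 transcript lengths, and for each of the 12735 genes above 0 in the 2 libraries a whole length gave whole reads to the precision printed. Any whole multiple of a fitting length fits as well, with as many times the reads, so the multiple closest to an annotated length was used. For Ly6a and Ly6d that was not the smallest, and for the other 4 members it was. The median depth of a compared gene was 991 reads (CD4) or 922 reads (CD8). On simulated libraries of 14352 genes the totals were found, and 96.7% of genes above 0 in both simulated libraries had the simulated reads. The simulated totals and lengths were those already chosen by the rule above, so neither result checks the choice of multiple or the scale of the totals. Of 11531 intervals 95.2% held the simulated fold. These intervals used the simulated reads and totals, not the recovered ones, and left out genes with few reads. Of 9834 unchanged genes 19 passed 2-fold. The simulated reads varied by counting error only, so this count does not cover variation between animals or library preparations.

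No test across samples was possible. Differences used a pseudocount of 1 RPKM, which understates those of low genes, and a filter of 1 RPKM in at least 1 library. Folds are ratios of RPKM without the pseudocount, with Clopper-Pearson intervals from the split of the reads. Named genes are the 6 members, up to 4 genes of each list (the 2 highest and the 2 with the largest difference), compared family genes and the 3 nearest genes of each member at 5 RPKM or more, leaving out symbols of the Gm, Rik, Snor, Mir, Rnu and Sca kinds. Outside that rule, after their values were seen, Piga, Nt5e, Cd44 and Fasl were named, with the genes beside the Ly6 cluster, Ly6i and the defining cell type markers. Some genes that the rule takes are left out for brevity. The members and lists were chosen with earlier results of these data known. Alternatives were other pseudocounts, filters and scalings, leaving out symbols on more than 1 row, summing Ly6c1 and Ly6c2, and annotated lengths. Motifs, windows and the neighbourhood were added after seeing the data.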

Additional observations from a re-analysis of the deposited data

How the results depend on the processing

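The calls of Ly6a, Ly6c1 and Ly6c2 held under every pseudocount, filter and scaling tried, with log2 differences of 1.74 to 2.05 for Ly6a, 2.69 to 4.13 for Ly6c1 and -5.93 to -4.48 for Ly6c2. Ly6e (0.06 to 0.35) and Ly6k (0.09 to 0.38) stayed above 0 and under 2-fold, and Ly6d stayed below 0 (-2.31 to -0.22), past 2-fold under 2 of 7 settings. Leaving out symbols on more than 1 row removed Ly6c1 and Ly6e by construction and left 1 member higher in CD4 in place of 2. Summing the paralogs reversed the direction of Ly6c1 by construction, to 3.70-fold higher in CD8. Annotated coding lengths put 1 pair of members, Ly6c1 and Ly6k in CD8, in another order. Over all compared genes 247 passed 2-fold toward CD4 and 314 toward CD8. A pseudocount of 0.1 RPKM gave 428 toward CD4 and 462 toward CD8, one of 5 RPKM gave 73 and 125, and a filter of 5 RPKM gave 152 and 208. Rescaling each library to a sum of 1000000 gave 517 toward CD4 and 285 toward CD8, and moved the median of genes with 1 RPKM or more in each library by 0.21 on the log2 scale, from 0.08 to 0.29. Under the same rescaling Ly6a, Ly6c1 and Ly6c2 kept their directions. The medians of further family genes and of anchor synthesis genes changed sign under 1 setting each. No paired analysis was possible because each cell type has 1 library. Depth limits Ly6d, with 2 reads in CD4 and 16 in CD8, and the low paralog of each library.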
